A study of Mus musculus with 6 samples.

Results

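The semaphorins, plexins and neuropilins were followed in the testis, taken whole from C57BL/6J males at 10 weeks of age. The family was taken as every gene whose symbol is that of a vertebrate semaphorin of classes 3 to 7, of a plexin A, B, C or D, or of neuropilin 1 or 2. It held 31 genes, read by 39 probes, out of 19751 named genes and 39429 probes. Of these, 30 genes and 36 probes had enough signal to be tested, and Sema3d was the gene left out. The membership rule used names and no measured value.

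The groups were 3 mice labelled TAp73 KO and 3 labelled TAp73 WT, with 1 single-colour Agilent array per mouse, and both groups share strain, sex, age and tissue. TAp73 names the forms of p73, a transcription factor related to p53, that carry a transactivation domain. The labels do not say in which cells the gene was deleted or whether the mice were littermates, so the knockout is described here only as labelled. In whole testis, fewer cells of a type and less RNA per cell cannot be told apart.

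Semaphorins are ligands with a sema domain. Those of class 3 are secreted, those of classes 4 to 6 span the membrane, and Sema7a is held at the surface by a lipid anchor. Plexins are their signalling receptors, and most class 3 ligands need a neuropilin as the subunit that binds them. The system is known from axon guidance, and it also controls attachment, migration and the cytoskeleton in epithelial, endothelial and immune cells.

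Trp73 itself was lower in all arrays labelled knockout. The log2 differences, knockout minus wild type, of its 3 probes were -6.01, -3.21 and -0.99 (limma, adjusted p = 0.00369, 0.00213 and 0.0104). The labels do not place these probes inside or outside the deletion. The authors' series value table carries the opposite labels: all 6 of its columns matched an array of the other group (correlation of probe deviations 0.97 to 0.99), and correlated with the array of their own label at -0.40 to -0.27. Under the table's labels 28 of the 30 tested members change sign, and Sema4c (0.083) and Plxnb2 (0.084) stay above 0. All directions given here follow the scanner files. Arrays had 74.4% to 84.4% of probes well above background. Knockout replicate 1 stood apart, with a score of -66.2 on principal component 1 where the other 5 arrays scored -4.91 to 30.8, so values without it are given where they change a result. Testis markers were present, with all 8 spermatid and all 7 spermatocyte genes of the marker lists measured.

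Of the 30 tested members, 5 fell and 0 rose in the knockout at an adjusted p under 0.05 in limma, a share of 16.7% lower where 3.53% of all measured genes were lower and 0.218% higher. The 5 were the receptor Plxnb3, the co-receptor Nrp1 and the ligands Sema5a, Sema4b and Sema7a. By unadjusted p at the same threshold 12 members lay lower and 1, Sema6a, higher, against 13.6% and 12.0% of all genes. The median log2 difference over the 30 members was -0.19, and over all 16947 measured genes it was 0.05. Members ranged from -1.33 to 0.35, and 21 of 30 lay below 0, where 42.2% of all genes did. The knockout arrays all lay below the wild type arrays for 14 members and all above for 2, against 16.0% and 19.2% of all genes. These counts are descriptions of the family, since it was chosen with earlier results of these data known.

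**Figure D1:**
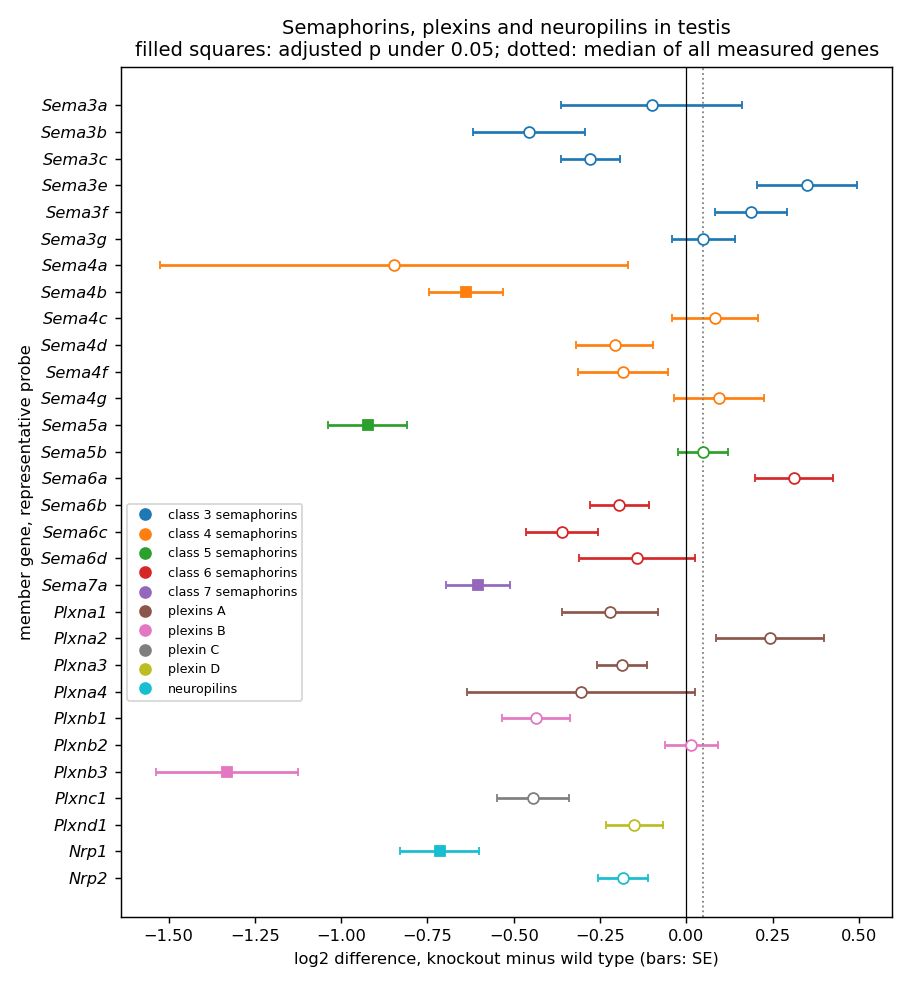
Log2 difference, knockout minus wild type, of each tested member gene (horizontal axis) with its SE, ordered by family, from 3 arrays per group. Filled squares mark the 5 members with an adjusted p under 0.05, all left of 0, from Sema7a at -0.60 to Plxnb3 at -1.33, and the dotted line is the median of all measured genes, 0.05.

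The promoter windows of a ligand and receptor that were both lower are shown first, since the pair gives the family's 2 largest called differences. They are RefSeq windows of build GRCm38.p6 from 250 bases before to 50 after the annotated start, 5′ to 3′ on the gene's strand, with the GC-box letters GGGCGG, on either strand, in capitals. The window of Sema5a lies at chr15:32244563-32244862 on the plus strand and that of Plxnb3 at chrX:73756853-73757152 on the plus strand.
Sema5a: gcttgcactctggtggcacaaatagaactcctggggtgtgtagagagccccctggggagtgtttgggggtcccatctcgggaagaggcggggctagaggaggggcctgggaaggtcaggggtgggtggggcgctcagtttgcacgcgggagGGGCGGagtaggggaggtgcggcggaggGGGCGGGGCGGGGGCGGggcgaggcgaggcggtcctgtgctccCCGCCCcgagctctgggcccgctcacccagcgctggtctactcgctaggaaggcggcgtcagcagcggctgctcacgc
Plxnb3: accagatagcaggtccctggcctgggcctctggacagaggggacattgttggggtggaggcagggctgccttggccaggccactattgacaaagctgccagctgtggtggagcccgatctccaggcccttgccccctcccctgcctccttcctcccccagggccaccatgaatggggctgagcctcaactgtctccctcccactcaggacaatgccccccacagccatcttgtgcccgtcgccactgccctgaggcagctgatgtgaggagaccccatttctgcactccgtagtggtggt

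The Sema5a window holds GGGCGG 5 times, counting overlaps and both strands, and the Plxnb3 window 0 times. Windows were given for 26 of the 31 members, 37 in all. GGGCGG was in 73.0% of them and in 35.7% of all 32851 windows of the table, and the median GC content was 63.7% against 52.7%. The E-box CACGTG was in 8.11% of member windows and 7.15% of all. The half-site of the p53 family was in 2 of the 37 member windows (5.41%, against 8.36% of all windows) and in 0 of the 6 windows of the 5 called members. A full site, 2 half-sites at most 13 bases apart, was in 0 member windows and 0.0731% of all. A match or its absence describes these letters in this window only. The 2 half-sites, in capitals, begin 161 bases before a start of Sema4d (chr13:51748952-51748981, minus strand) and 165 bases before that of Plxna3 (chrX:74328891-74328920, plus strand). Neither gene passed the test.
Sema4d: gaatggggacAGGCTTGTCCcacgacctgc
Plxna3: gacccatgagAGGCTTGCTTcttgcactag

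Plxnb3, a plexin of class B best known as the receptor of Sema5a, had the largest difference of the family. Its signal (scanner units, replicates in order) was 90.8, 114 and 109 in wild type mice and 37.5, 41.1 and 26.9 in knockouts. All 3 knockout arrays were low and the groups did not overlap. After scaling to each array's 75th percentile, which was itself -0.26 log2 in knockout minus wild type, Plxnb3 was 2.52-fold lower (log2 difference -1.33, SE 0.21, adjusted p = 0.0315). Slides were told apart by a number in the names of the scanner outputs, since the sample labels name no slide. Within slide 1, which held 2 arrays of each group, the difference of Plxnb3 was -1.08, and in the pair of arrays on slide 2 it was -1.84. Its signal is low, and with normexp background correction the difference was 0.35 (adjusted p = 0.692). Without any 1 of the 6 arrays the call was lost (adjusted p = 0.0501 to 0.135), with differences of -1.52 to -1.18.

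The other class B receptors differed less. Plxnb1, the receptor of Sema4d, read 461, 419 and 372 in wild type and 315, 226 and 238 in the knockouts, without overlap, and missed the threshold (-0.44, SE 0.10, adjusted p = 0.0781). Plxnb2, a receptor of Sema4c and Sema4d, had a difference of 0.01 (95% interval -0.17 to 0.20). So 1 of the 3 class B plexins, Plxnb3, was called lower, where 3.53% of all measured genes were. With 3 genes the count cannot be set against that share.

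Sema5a, a transmembrane semaphorin with thrombospondin repeats, was the ligand with the largest called difference. Wild type mice read 2021, 1756 and 1988 and knockouts 1079, 802 and 698. The highest knockout array lay well below the lowest wild type array. Sema5a was 1.90-fold lower (log2 difference -0.92, SE 0.11, adjusted p = 0.0178), with -0.84 within slide 1 and -1.09 in the slide 2 pair. It kept its call without knockout replicate 1 (-1.01, adjusted p = 0.0298) and without knockout replicate 3 (-0.81, adjusted p = 0.0469), and lost it without knockout replicate 2 or wild type replicate 1, 2 or 3 (adjusted p = 0.0766, 0.0548, 0.0866 and 0.0733). With slide as a block it was the only member still called. Its class partner Sema5b read 10258, 8406 and 9107 in wild type and 9125, 7341 and 7579 in the knockouts, with a difference of 0.05 (95% interval -0.13 to 0.22). A second Sema5b probe gave 0.01.

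Nrp1, the co-receptor that binds Sema3a and also vascular endothelial growth factor, read 237, 265 and 238 in wild type and 139, 127 and 112 in the knockouts. The 2 groups were separate by more than their own ranges. It was 1.64-fold lower (-0.71, SE 0.11, adjusted p = 0.0343), with -0.57 within slide 1 and -1.0 in the slide 2 pair. With normexp the difference was 0.055 (adjusted p = 0.937), and leaving out any 1 array ended the call (adjusted p = 0.0611 to 0.125, differences of -0.79 to -0.63). Nrp2, which binds Sema3f, read 1412, 1194 and 1323 against 1114, 894 and 893. It did not overlap between groups either, but its difference was -0.18 (SE 0.07, adjusted p = 0.202), and a second probe gave -0.16.

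Sema4b, a transmembrane semaphorin, read 1362, 1376 and 1654 in wild type and 849, 744 and 760 in the knockouts. The knockout values were close together and all below wild type. It was 1.56-fold lower (-0.64, SE 0.11, adjusted p = 0.039), with -0.65 within slide 1 and -0.61 in the slide 2 pair. It kept its call without wild type replicate 1 (-0.72, adjusted p = 0.0487) and lost it without any other single array (adjusted p = 0.086 to 0.151).

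Sema7a, the lipid-anchored semaphorin, binds plexin C1 and integrins with the beta 1 chain. Its probe read 12458, 11898 and 13902 in wild type and 7419, 6718 and 6884 in the knockouts. Again no knockout array reached the lowest wild type array. It was 1.52-fold lower (-0.60, SE 0.09, adjusted p = 0.0308), with -0.63 within slide 1 and -0.54 in the slide 2 pair, and -0.62 under normexp. The call was lost without any 1 of the 6 arrays (adjusted p = 0.0581 to 0.130). Its receptor Plxnc1 read 3829, 3999 and 3384 against 2806, 1989 and 2160, with all knockout arrays lower and a difference of -0.44 that missed the threshold (SE 0.10, adjusted p = 0.0851). Another Plxnc1 probe gave -0.22 with overlapping groups. Itgb1, the integrin beta 1 chain, had a difference of -0.27 (adjusted p = 0.102).

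**Figure D2:**
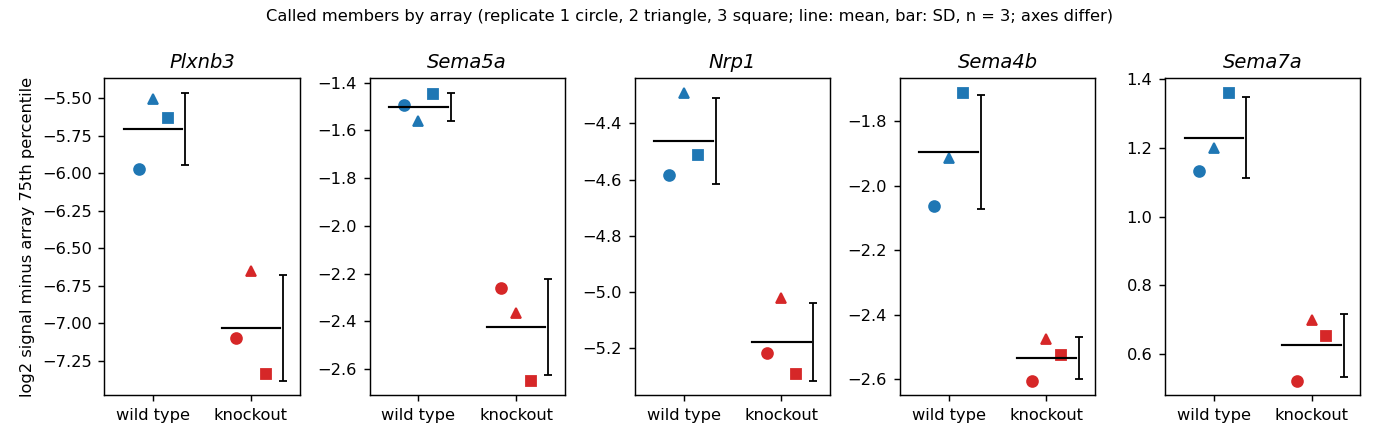
Log2 signal minus the array's 75th percentile (vertical axes, which differ between panels) of the 5 called members in each array, with the mean as a line and the SD as a bar (n = 3 per group). In each panel the 3 knockout arrays lie below the 3 wild type arrays, with SDs of 0.07 to 0.35 in the knockouts.

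The secreted class 3 ligands had 0 called members among 6 tested, where 3.53% of all measured genes were called lower and 0.218% higher. By unadjusted p in limma 2 were lower and 0 higher, against 13.6% and 12.0% of all genes. Their median was -0.03. Sema3c, which acts through neuropilins and plexin D1, had the smallest p among them: 2704, 2567 and 2518 in wild type against 1979, 1792 and 1616 in the knockouts (-0.28, SE 0.09, adjusted p = 0.141). Sema3b read 347, 393 and 449 against 310, 232 and 193 (-0.46, adjusted p = 0.178). Both had all knockout arrays below wild type. Sema3e, the ligand that binds plexin D1 without a neuropilin, lay on the other side, with 38.7, 31.9 and 42.2 units in wild type and 54.3, 33.3 and 34.8 in the knockouts. Only after scaling were all its knockout arrays above wild type (0.35, SE 0.15, adjusted p = 0.217). Sema3f (0.19), Sema3g (0.05) and Sema3a (-0.10) had overlapping groups, and the tested Sema3a probe was well above background on 3 of 6 arrays.

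Class 3 genes that lie near each other had differences of both signs, none of them called. On chromosome 5, Sema3d and Sema3a are neighbouring protein-coding genes, with 3 others between Sema3a and Sema3e and 15 between Sema3e and Sema3c, and the 3 tested of these had differences of -0.10, 0.35 and -0.28. On chromosome 9, Sema3b and Sema3f have 3 protein-coding genes between them and differed by -0.46 and 0.19. These differences between neighbours were not tested. The 31 members lie on 17 chromosomes, 0 of them on chromosome 4 with Trp73, and the 5 called members lie on 5 different chromosomes (gene order of GRCm38.p6).

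Among the other transmembrane ligands, Sema6c read 5187, 4582 and 4119 in wild type and 3753, 2631 and 2739 in the knockouts. Its groups did not overlap, and its difference was -0.36 (SE 0.11, adjusted p = 0.127), the smallest p of class 6. Sema6a, which binds plexins A2 and A4, had the only unadjusted p under 0.05 in the higher direction (0.31, SE 0.11, adjusted p = 0.185), with all scaled knockout values above wild type. Sema6b was at -0.19 (adjusted p = 0.232), also without overlap. Sema6d, a ligand of plexin A1, was the one member whose tested probes differed in sign, at -0.14 for the probe that stands for the gene and 0.10 for the other, neither called. In class 4, Sema4d (-0.21), Sema4f (-0.18), Sema4g (0.09) and Sema4c (0.08) had overlapping groups. Sema4c was saturated on 1 array.

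Sema4a, a class 4 ligand of immune cells, had the widest spread of the family. It read 18025, 16018 and 18613 in wild type and 14524 and 12837 in knockout replicates 2 and 3, but 2894 in knockout replicate 1. After scaling, knockout replicates 2 and 3 overlapped wild type, and that single array lay 2.39 log2 units below the lowest of the other 5. The difference of -0.85 (SE 0.68, adjusted p = 0.463) became -0.01 (adjusted p = 0.971) without it. In Plxna4 the same array went the other way. Plxna4 read 155, 149 and 145 in wild type, 66.9 and 76.9 in knockout replicates 2 and 3 and 201 in knockout replicate 1. Its difference was -0.31 (SE 0.33, adjusted p = 0.585) over all arrays and -0.71 without knockout replicate 1 (adjusted p = 0.0351), when it joined Sema5a as the second called member. Sema4a and Plxna4 were singled out after their values were seen.

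**Figure D3:**
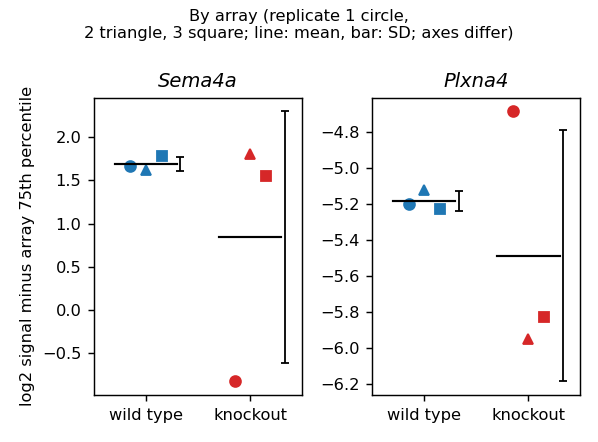
Log2 signal minus the array's 75th percentile of Sema4a and Plxna4 in each array (vertical axes differ), with group mean and SD. Knockout replicate 1, the circle, lies 2.39 log2 units below every other array for Sema4a and 0.44 above every other array for Plxna4.

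The class A plexins, receptors of the class 3 and class 6 ligands, had 0 calls among 4 tested, Plxna4 included. Of all measured genes 3.53% were called lower and 0.218% higher. By unadjusted p in limma 1 of the 4 was lower and 0 higher, against 13.6% and 12.0% of all genes. Plxna3 had the smallest p, with 56.1, 53.9 and 57.4 units in wild type and 45.5, 39.2 and 38.6 in the knockouts (-0.19, SE 0.07, adjusted p = 0.204). Its groups did not overlap, and its signal was well above background on 5 of 6 arrays. Plxna1 was at -0.22 and Plxna2 at 0.24, both with overlapping groups. Plxnd1, a plexin of endothelial cells, read 2330, 2318 and 2342 against 1844, 1694 and 1732. Its knockout arrays all lay lower, yet scaling left a difference of -0.15 (SE 0.08, adjusted p = 0.310), and its second probe gave -0.14.

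Set side by side, known ligands and receptors gave different pictures. Sema5a (-0.92) and Plxnb3 (-1.33) were the only pair of the 19 compared in which both members were called lower. For Sema7a and Plxnc1 the ligand was called and the receptor was not (-0.60 and -0.44). For Sema3a and Nrp1 it was the receptor subunit that was called (-0.10 and -0.71). The Sema3a probe was well above background on only 1 knockout and 2 wild type arrays. Sema3c, also paired with Nrp1, lay at -0.28 and was not called. Sema6a and Plxna2 both lay above 0 (0.31 and 0.24), and Sema3e and Plxnd1 lay on opposite sides (0.35 and -0.15), with none of these 4 called. The pairs were chosen from general knowledge and share members, so they were counted and not tested.

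**Figure D4:**
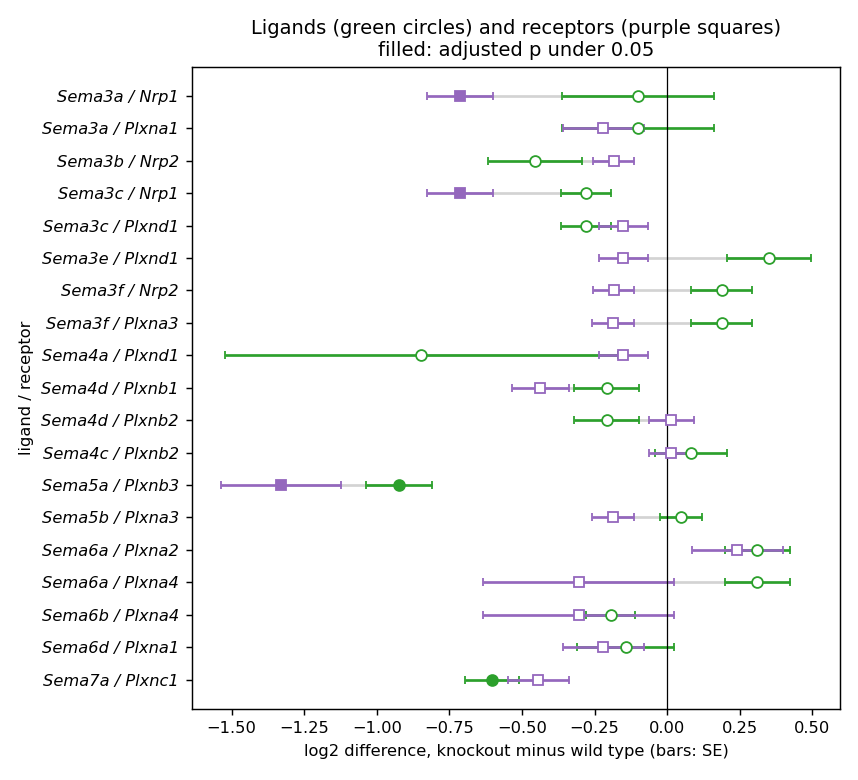
Log2 difference, knockout minus wild type, with SE, of the ligand (green circle) and the receptor (purple square) in 19 known pairs, 1 pair per line, from 3 arrays per group. Filled symbols have an adjusted p under 0.05, which both members reach only for Sema5a and Plxnb3.

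The signalling partners came from 4 lists. Of 65 measured partner genes 8 were lower (12.3%, against 3.53% of all measured genes), 0 were higher (0.218%) and 57 did not pass. By unadjusted p limma placed 21 lower (32.3%, against 13.6%) and 3 higher (4.62%, against 12.0%), and the median was -0.13. Lower among co-receptors and alternative receptors (4 of 18 measured, median -0.16) were Flt4, a receptor of vascular endothelial growth factors C and D (-0.83, adjusted p = 0.0147), the integrin chain Itgav (-0.50, adjusted p = 0.0343), the endocytic receptor Lrp1 (-0.52, adjusted p = 0.0458) and Trem2, a receptor of macrophages (-0.82, adjusted p = 0.0487). The signal of Flt4 was low, at 83.5, 69.8 and 89.6 units in wild type and 44.3, 33.6 and 36.9 in the knockouts. Of 35 plexin effectors 2 were lower (5.71%, near the 3.53% of all genes; median -0.07). They were Mical1, the flavoprotein that oxidises actin after plexin A activation (-0.82, adjusted p = 0.022), and Rnd3, a GTPase that opposes RhoA (-0.88, adjusted p = 0.0262). Of 7 proteases and regulators 2 were lower (median -0.20): Furin, a convertase that cleaves class 3 semaphorins (-0.46, adjusted p = 0.0407), and Adam10, a shedding protease (-0.54, adjusted p = 0.0304). The 5 growth factors that share neuropilins had 0 calls (limma; 0 lower, 0 higher by unadjusted p), and the smallest p were those of Vegfa (-0.16, adjusted p = 0.326) and Vegfc (-0.43, adjusted p = 0.348). Without wild type replicate 1 the count of lower partners was 4, with 1.32% of all probes lower. It was 1 without knockout replicate 1 (1.32%), wild type replicate 2 (0.369%) or wild type replicate 3 (0.721%). Without knockout replicate 2 or 3 it was 0 (0.366% and 0.456%). With all 6 arrays 2.64% of probes were lower.

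Markers of the cell types that testis could hold were read on the same arrays. For comparison, limma called 3.53% of all measured genes lower and 0.218% higher. By unadjusted p the shares were 13.6% lower and 12.0% higher. Levels of the markers were summed in units of the array's 75th percentile. For 10 measured macrophage markers the sum was 3.61 to 3.94 in the knockouts and 5.30 to 5.85 in wild type. Of the 10, 3 were lower (Cd14, Cd74 and C1qc), and by unadjusted p in limma 6 were lower and 0 higher. Endothelial markers summed to 4.31 to 4.75 against 4.94 to 5.26, with 1 of 10 lower (Robo4, -2.80). By unadjusted p in limma 2 of the 10 were lower and 0 higher. Without Robo4, left out after its value was seen, the other 9 summed to 4.17 to 4.60 in the knockouts and 3.85 to 4.47 in wild type, and the groups overlapped. Sertoli cell markers summed to 64.7 to 74.0 against 69.4 to 76.0, which overlap, and 4 of the 14 were saturated on some array. Of the 14, 4 were lower (9 by unadjusted p in limma), and their median was -0.31. Nerve and Schwann cell markers summed to 2.26 to 2.61 against 2.66 to 2.75, with 0 of 7 called (limma; 0 lower, 0 higher by unadjusted p). Spermatid markers summed to 89.7 to 108 against 79.5 to 88.7, with 0 of 8 called (limma; 0 lower, 4 higher by unadjusted p), and 5 of the 8 were saturated on some array. In scanner units the groups overlapped for each of the 8, and Prm1 read 65232, 68284 and 73181 in knockouts against 63417, 72736 and 67595. Their median scaled difference was 0.26. Scaling alone raises a probe of equal signal in both groups, since the knockout scale lay at -0.26 log2 against wild type. These sums therefore cannot show whether spermatid RNA was higher, and the part due to scaling was not tested. The same limit holds for the sums of spermatocyte markers and of epididymis and efferent duct markers given below. Markers of epididymis and efferent ducts summed to 0.444 to 0.458 against 0.418 to 0.437, with 0 of 5 measured called (limma; 0 lower, 0 higher by unadjusted p). Of these 5, Defb15 read 1336 to 1741 units, and another 3 (Lcn5, Lcn8 and Slc9a3) were well above background on 0 of the 6 arrays. Leydig cell markers summed to 18.7 to 29.0 in the knockouts and 24.3 to 35.6 in wild type (1 of 8 lower, Hsd3b1). By unadjusted p in limma 2 of them were lower and 1 higher. The lowest sum was that of knockout replicate 1, where Cyp17a1 read 15200 units, against 53764 and 56889 in knockout replicates 2 and 3. Wild type arrays read 37440, 72887 and 53700 for this gene. Peritubular myoid cell markers summed to 9.67 to 10.4 and 8.99 to 12.1 (1 of 6 lower, Smtn). By unadjusted p in limma 1 of them was lower and 1 higher. Blood cell markers summed to 3.63 to 5.82 and 5.55 to 7.12 (0 of 4 called, 2 lower by unadjusted p in limma). Spermatogonia summed to 6.85 to 7.05 and 7.17 to 7.44, and spermatocytes to 24.4 to 25.7 and 22.6 to 22.9, with 0 of 7 called in each (limma; 1 lower, 1 higher and 0 lower, 3 higher by unadjusted p). The part of these cell types in the differences of the semaphorin family was not tested.

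The calls depended on the processing, and so did the share of all probes called lower, which stands here beside each count. By probe, 5 of the 36 tested member probes were lower and 0 higher, against 2.64% and 0.248% of all. All 5 genes were called with quantile normalization (2.73% of probes lower), with only probes well above background on all 6 arrays (3.82%), without saturated probes (2.88%) and with the probes of each gene averaged (4.86% of genes). Median scaling kept 4 (1.79%) and lost Sema4b (adjusted p = 0.0531). Sema5a alone remained with no filter on dim probes (0.885%) and with slide as a block (0.940%), and Sema7a alone with normexp followed by quantile normalization (1.27%). Of all probes 0% were lower with normexp or within slide 1, and 0.0283% with the replicate number as a block, and 0 members were called there (limma; 3, 6 and 9 lower by unadjusted p). Leaving out knockout replicate 1, 2 or 3 gave 2, 0 and 1 lower members, with 1.32%, 0.366% and 0.456% of probes lower. Leaving out wild type replicate 1, 2 or 3 gave 1, 0 and 0, with 1.32%, 0.369% and 0.721%. Under the value table's own labels 5 members were higher (2.76%).

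**Figure D5:**
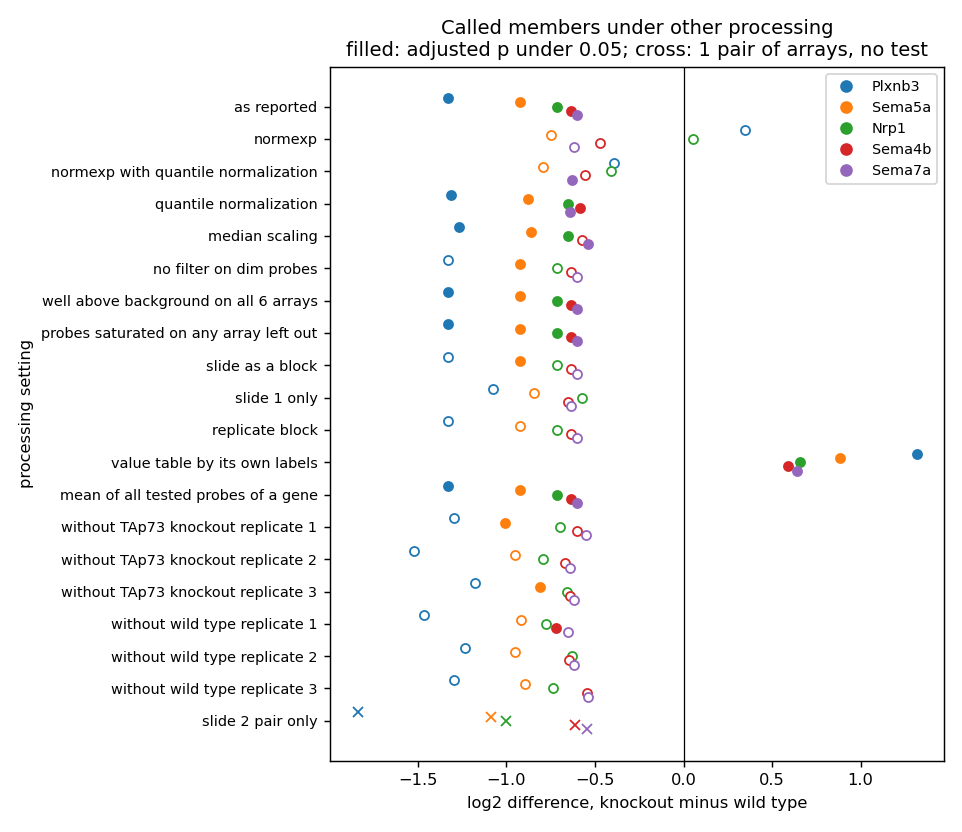
Log2 difference, knockout minus wild type, of the 5 called members (colours) under the processing as reported and each alternative (lines). Filled circles have an adjusted p under 0.05 and crosses are a single pair of arrays with no test; the values lie right of 0 for all 5 members under the value table's own labels and for Plxnb3 (0.35) and Nrp1 (0.055) under normexp.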

How the data were processed

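The members and gene lists were chosen with earlier results of these data known. The authors deposited 1 scanner output per array, written by Feature Extraction 10.7.3.1 with a 1-colour protocol for a design built on mm9, per the file headers; its values are linear spot intensity. The deposited background-subtracted processed signal was used here. The authors also deposited a value table of linear intensity, whose normalization the sources used here do not give. The submitters' processing notes name limma without a version. Control spots were left out, non-uniform and outlier spots were dropped, and saturated ones stayed in. Spots of a probe were averaged as log2 and set relative to the 75th percentile of their array. Testing required a signal well above background in 3 or more of the 6 arrays and 2 or more values in each group, and 31801 probes met this. Array accessions were matched, without versions, to RefSeq transcripts of GRCm38.p6, and 26055 of 39429 probes received a symbol.

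Groups were compared with limma 3.58.1 (R 4.3.3), a two-sided moderated test from lmFit and eBayes with no covariate, with Benjamini-Hochberg adjustment over all tested probes and a threshold of 0.05. The fit was also run on simulated data with independent normal errors. These hold no shift of a whole array, so that run cannot show how the fit handles such shifts. A gene was represented by its brightest complete tested probe. Of the members, 8 had 2 probes and 23 had 1. Named are all members, with arrays in full for called members and the smallest p of each family, the called signalling partners or the 2 with the smallest p, and Trp73. Normexp used the median signal, as the files have no mean signal column. The number of arrays limits the precision.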

Additional observations from a re-analysis of the deposited data

How the results depend on the processing

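Normexp left 0 called member genes, 0 member probes and 0 partners (limma; 3 members lower, 0 higher by unadjusted p). The member median became 0.048, where that of all tested probes was 0.22, Nrp1 became 0.055 and Plxnb3 0.35. The Trp73 probes, listed as in the Results, became -1.88, -0.90 and -0.63 (limma, adjusted p = 0.537 for each). Normexp with quantile normalization left 1 member gene, Sema7a, 1 probe and 2 partners, with a median of -0.094. Median scaling left 5 partners lower. Without a filter on dim probes 1 member gene, 1 probe and 1 partner were lower, and with slide as a block 1, 1 and 2. Within slide 1 the counts were 0, 0 and 0 (limma; 6 members lower, 1 higher by unadjusted p), and the Trp73 probes A_52_P193555, A_52_P410636 and A_55_P1988133 had -5.77, -0.96 and -3.07 (adjusted p = 0.183, 0.280 and 0.109). In the slide 2 pair A_55_P1988133 had -3.50. With the replicate number as a block the counts were 0, 0 and 0 (limma; 9 members lower, 1 higher by unadjusted p), and Trp73 probes A_52_P193555 and A_52_P410636 were not called at -6.01 and -0.99 (adjusted p = 0.0686 and 0.0927). The labels give no link between same-numbered arrays beyond the number. Correlations of their deviations from the group means were -0.03, -0.08 and -0.09, and those of differently numbered arrays -0.02 to 0.095. With 3 arrays per group these values cannot show whether the mice were paired. Under the value table's own labels 0 member genes, 0 probes and 0 partners were lower and 5, 5 and 8 were higher. The median was 0.15 there, and Sema4b had 0.59, Sema5a 0.88, Sema7a 0.64, Nrp1 0.66 and Plxnb3 1.32. The Trp73 probes, listed as in the Results, had 6.01, 3.18 and 0.94 under these labels. With 1 array left out, 0 to 2 member genes, 0 to 2 member probes and 0 to 4 partners were lower. Of all probes 0.366% to 1.32% were lower in these fits. The member median was -0.28 to -0.17, and the Trp73 probe A_52_P410636 had -1.09 to -0.94. The 5 called members kept a negative sign under every alternative except normexp for Nrp1 and Plxnb3 and the value table for all 5. The cause of these changes was not tested. Where signals lie near background, as for Plxnb3, Plxna3, Sema3a, Sema3e, Sema3g and the partner Flt4, differences are less certain.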

Other observations

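Of 31618 tested probes with values on all arrays, 356 (1.13%) read at least 2 log2 units lower on knockout replicate 1 than on any other array. The same count was 33 for knockout replicate 2, 35 for wild type replicate 1 and 0 or 1 for the other 3 arrays. Sema4a was the only member among the 356. Rac1, a GTPase that acts downstream of plexins, lay 3.20 log2 units below the lowest other array there, with 1318 units of signal in knockout replicate 1 against 10250 to 17092 in the others. This gap was chosen after Sema4a was seen.

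There were 3 member probes that were not tested for lack of signal. The Sema3d probe was well above background on 1 wild type array, where it read 61.7 units, against 3.94 to 11.5 on the others. A second Sema3a probe read 39.3 on knockout replicate 3 and 3.86 to 11.3 elsewhere. A second Plxna4 probe, at 7.91 to 14.5 units, was well above background nowhere, so that the values of Plxna4 rest on its other probe.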
